A study of Mus musculus with 188 samples.

Results

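Il19 encodes interleukin 19, a secreted cytokine, and its transcript was followed here in cultured mouse brain slices exposed to hemoglobin, heme or their plasma scavengers. It is 1 gene of the 25655 listed for sequencing batch 1 and of the 25528 listed for batches 2 and 3, and each count file held 1 row for it (ENSMUSG00000016524). The gene was chosen by measured values, namely its fold changes in the slices given hemoglobin (Hb) or the hemoglobin-haptoglobin complex (HbHp) at 200 μM over their vehicle controls. Its values in those libraries are therefore given below as a description without a test. The tests concern the heme doses of batch 1 and the 400 μM libraries.

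The slices were coronal organotypic brain slice cultures from wild-type C57BL/6J mice of both sexes aged 6 to 8 weeks, with a pair of slices on each culture insert and treatment starting on culture day 7. All groups carried this genotype, and bulk polyadenylated RNA of the slices was sequenced. The methods name more than 1 sequencing instrument without assigning libraries to them. Batch 1 held 6 groups of 10 libraries, all collected at 24 h, which were vehicle control, heme-albumin at 12.5, 50, 200 or 400 μM, and heme bound to hemopexin (hemeHpx) at 200 μM. Batches 2 and 3 held vehicle control, Hb at 200 or 400 μM, HbHp at 200 or 400 μM, and haptoglobin alone (Hp, labelled 400 μM), each at 24 h and 48 h, in 12 groups of 4 to 12 libraries. The hemoglobin, haptoglobin and hemopexin were human proteins. Another 21 of the 188 libraries carried labels that leave their condition open and entered no comparison. The titles of the hemeHpx libraries name haptoglobin, and their treatment tag and library names, which give hemopexin, were followed. The mice were perfused before dissection and slices have no circulation, so blood leukocytes can be present only as far as they remained in the tissue. The labels do not say that replicates came from separate animals, and p-values therefore measure only the spread between libraries.

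Interleukin 19 belongs to the interleukin 10 family of cytokines. It signals through a receptor made of the subunits encoded by Il20ra and Il20rb, which activate Janus kinases and the transcription factor STAT3, and STAT3 in turn induces inhibitors such as SOCS3. Activated myeloid cells and epithelial cells are known sources, and microglia can produce it when activated. Heme released from hemoglobin is oxidative, and cells answer it with heme oxygenase 1 (Hmox1), iron storage and export, and the antioxidant genes under the transcription factor NRF2. Haptoglobin binds free hemoglobin and hemopexin binds free heme, which directs both cargoes to scavenger receptors.

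Il19 lies on the minus strand of chromosome 1 at chr1:130932656-130940115 in GRCm38, with 4 annotated transcripts and 0 annotated genes overlapping it. The same cluster holds 3 relatives, Il20 at a distance of 21204 bases and Il24 at 45201 bases on the side of lower coordinates, and Il10 at 79729 bases on the other side. The 250 bases before its transcription start (chr1:130940116-130940365, minus strand, from RefSeq, GRCm38.p6) are printed because Il19 is compared below with antioxidant genes and with genes of STAT3 signalling. The capitals mark the only matches among 8 searched motifs, both strands being read.
Il19 promoter: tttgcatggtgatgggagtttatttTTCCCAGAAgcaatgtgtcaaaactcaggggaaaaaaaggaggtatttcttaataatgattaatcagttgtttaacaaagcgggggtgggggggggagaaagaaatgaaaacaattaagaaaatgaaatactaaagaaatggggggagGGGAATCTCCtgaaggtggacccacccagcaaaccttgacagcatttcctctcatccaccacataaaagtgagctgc

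The first capitals, at 225 to 217 bases before the start, match the STAT site TTCNNNGAA, which was present in 7.02% of 32851 promoters of the same length. The second capitals, at 77 to 68 bases before the start, match the NF-kB consensus, present in 3.9% of them. The window held no match to the antioxidant response element core TGACNNNGC (10.2% of promoters), the AP-1 site TGANTCA (6.75%), the C/EBP site TTGCNNCAA (1.74%), the CRE site TGACGTCA (1.55%), the TATA box TATAAA (12.4%) or the xenobiotic response element core GCGTG (28.2%). Its GC content was 42%, against a median of 52.4% over all these promoters. A match is a run of letters and not a measured site.

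Libraries held 11038484 to 44199060 counted reads in batch 1, 32626873 to 54174784 in batch 2 and 15587938 to 38839614 in batch 3. Levels are given as CPM, the reads of a gene relative to the library total, scaled by the trimmed mean of M values (TMM). Glial markers were the most abundant of the marker lists. In batch 1 controls the summed level had a median of 16927 CPM for 7 oligodendrocyte markers, 10901 CPM for 8 astrocyte markers, 1564 CPM for 13 microglia markers, 976 CPM for 7 fibroblast and meningeal markers and 587 CPM for 8 neuron markers. In bulk RNA, more cells of a type and more RNA per cell cannot be told apart. The libraries of batches 2 and 3 carry the prefix E1 or E2 in their names, called rounds here, a code that the labels do not explain. The Hp libraries stood apart by this code, with 34.2% of all genes called between rounds E1 and E2 at 24 h and 16% at 48 h in a split noticed after the values were seen. All libraries placed in the HbHp groups were of round E2 and batch 3. A further 20 libraries of batch 3, 14 of them of round E1, have titles that name hemoglobin with haptoglobin but the treatment tag HbHpx, and were placed in no group. Comparisons of Il19 with Hp are therefore given over both rounds and within round E2.

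In batch 1 Il19 was close to its detection limit in vehicle controls and higher with each dose of heme-albumin from 50 μM on. The 10 controls ran from 0 to 0.943 CPM with a median of 0.357 CPM, which stood for 0 to 14 reads. The control at 0 (replicate 14) had 11038484 reads, the fewest of all libraries, and a count of 0 allows up to 0.272 CPM there. Such a limit covers counting error only.

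With heme-albumin at 12.5 μM the lowest, median and highest values were 0.677, 1.31 and 3.33 CPM. At 50 μM they were 0.738, 2.25 and 3.81 CPM. At 200 μM they were 0.362, 1.80 and 5.20 CPM. The number of libraries above the highest control was 8 of 10, 9 of 10 and 8 of 10 at these doses, so all 3 groups overlapped the controls at their lower end. At 400 μM the values were 0.366, 3.51 and 6.50 CPM (8 to 152 reads), with 9 of 10 libraries above every control and 1 library, replicate 1, inside the control range. All 40 heme-albumin libraries lay above the control median.

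**Figure D1:**
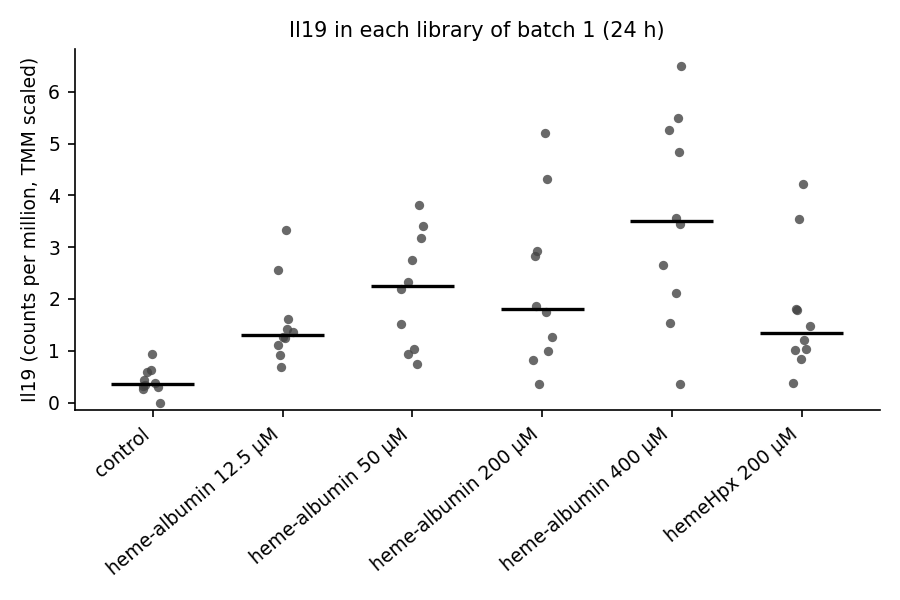
Il19 in the 60 libraries of batch 1, in CPM on the vertical axis, with 1 point per library, by treatment and dose at 24 h on the horizontal axis; horizontal bars mark medians. The control points lie at or below 0.943 CPM, and most points of every heme group lie above them, with 1 low library at 400 μM.

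Tested with edgeR (quasi-likelihood F test, p adjusted by the procedure of Benjamini and Hochberg over 15554 genes), the fold change over control was 3.57 at 12.5 μM (log2 1.84, SE 0.45), with an adjusted p of 0.134 and only 0.0450% of all genes called. At 50 μM Il19 rose 5.02-fold (log2 2.33, SE 0.45, adjusted p = 0.00125 in edgeR), and 0.463% of genes were called. At 200 μM it rose 5.17-fold (log2 2.37, SE 0.45, adjusted p = 0.000133 in edgeR), where 13.6% of genes were called. At 400 μM it rose 8.28-fold (log2 3.05, SE 0.44, adjusted p = 2.11e-07 in edgeR), where 29% of genes were called.

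Ordered by fitted fold change among the 15554 genes tested, Il19 held rank 2 at 12.5 μM, rank 4 at 50 μM, rank 2 at 200 μM and rank 6 at 400 μM. The controls held a median of 7.5 reads, under the filter's smallest count of 10, so Il19 was kept through its heme groups. A gene with controls so near the floor can rank high by fold change on few reads, and these ranks are a description. The call at 12.5 μM depended on the method, since DESeq2 gave an adjusted p of 0.0137 for a log2 fold change of 1.86. The levels did not follow the doses strictly. The group medians ran in the order control, 12.5 μM, hemeHpx, 200 μM, 50 μM and 400 μM, and each group overlapped the next in this order. The 4 dose comparisons and that of hemeHpx share the same 10 controls.

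HemeHpx at 200 μM gave 0.369, 1.34 and 4.21 CPM as lowest, median and highest values, with 8 of 10 libraries above the highest control. Il19 was 3.89-fold higher than in controls (log2 1.96, SE 0.45, adjusted p = 0.0163 in edgeR), where 8.20% of genes were called. This call rested on the control library at 0 reads. Without it the log2 fold change was 1.83 and the adjusted p in edgeR 0.0507.

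At the same dose and time, hemeHpx and heme-albumin were not separated for Il19. The mean was 1.73 ± 1.22 CPM (SD, n = 10) with hemeHpx and 2.23 ± 1.58 CPM (SD, n = 10) with heme-albumin. The log2 difference was -0.41 (SE 0.38, 95% interval -1.15 to 0.33, adjusted p = 0.422 in edgeR), while 25.9% of all genes were called. No hemeHpx library exceeded the highest heme-albumin library.

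In batches 2 and 3 the controls again held little Il19. The 10 controls of 24 h ran from 0.169 to 0.712 CPM with a median of 0.492 CPM. The 9 controls of 48 h ran from 0.0785 to 0.497 CPM with a median of 0.332 CPM. Both control groups thus stayed under 1 CPM.

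Hb at 200 μM gave 1.41, 2.14 and 4.48 CPM (lowest, median, highest of 10) at 24 h and 1.39, 2.47 and 3.27 CPM at 48 h. All 10 libraries lay above every control of the same time, at both times. The fitted log2 difference from control was 2.46 (SE 0.41) at 24 h and 2.90 (SE 0.43) at 48 h, or 5.51-fold and 7.48-fold. With Hb at this dose 0.0425% of all genes were called at 24 h and 0.115% at 48 h, which does not show that the others stayed unchanged.

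HbHp at 200 μM gave 0.482, 1.74 and 2.09 CPM (lowest, median, highest of 8) at 24 h, with 7 of 8 libraries above the highest control. At 48 h it gave 1.27, 2.12 and 6.00 CPM, with 8 of 8 above it. The fitted log2 differences from control were 2.00 (SE 0.49) and 3.04 (SE 0.51), or 3.99-fold and 8.25-fold, against 3.46% and 24.7% of all genes called. Most controls were of round E1. Within round E2 the 48 h difference was 15.7-fold with HbHp (log2 3.97, SE 0.74) and 13.9-fold with Hb (log2 3.79, SE 0.74), both against the same 2 controls. The HbHp and Hb groups of 200 μM overlapped at both times. These 200 μM values are those on which the gene was chosen. By fold change Il19 held rank 1 of 16473 genes with Hb at 24 h, rank 2 at 48 h, rank 8 with HbHp at 24 h and rank 21 at 48 h.

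**Figure D2:**
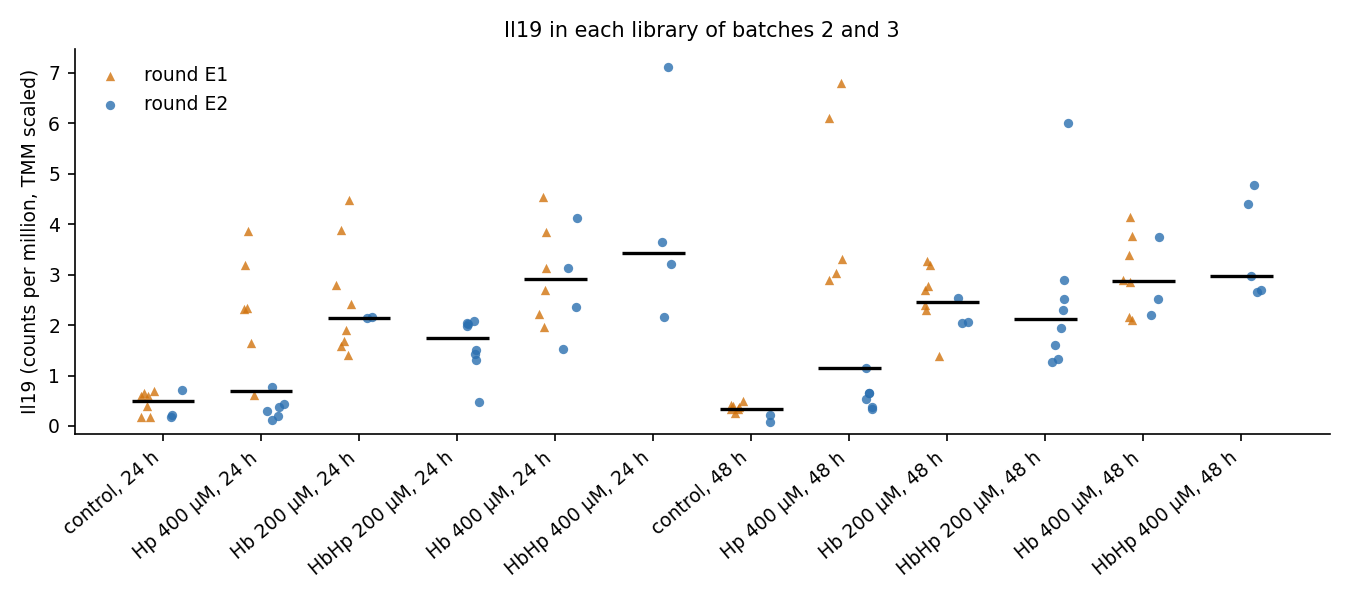
Il19 in the libraries of batches 2 and 3 with a labelled condition, in CPM on the vertical axis, with 1 point per library (triangles for round E1, circles for round E2), by treatment, dose and time on the horizontal axis; horizontal bars mark medians. Controls stay below 1 CPM, the Hb and HbHp groups lie mostly between 1 and 5 CPM, and the Hp groups spread from control-like levels to 6.79 CPM.

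Hp alone, given without hemoglobin, split into separate ranges by round. At 24 h the 6 libraries of round E1 held 0.617, 1.64, 2.33, 2.33, 3.19 and 3.86 CPM, and the 6 of round E2 held 0.111, 0.207, 0.304, 0.375, 0.442 and 0.767 CPM. Only the lowest E1 library fell inside the E2 range. At 48 h the 5 libraries of round E1 held 2.90, 3.03, 3.31, 6.10 and 6.79 CPM, and the 6 of round E2 held 0.336, 0.371, 0.542, 0.649, 0.658 and 1.16 CPM. There the rounds did not overlap, and the E1 libraries of Hp lay within or above the range of the 400 μM hemoglobin groups of 48 h.

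The difference between rounds was 2.48 on the log2 scale at 24 h (exact two-sided permutation test, p = 0.00433, adjusted over 4 tests 0.00577) and 2.74 at 48 h (exact two-sided permutation test, p = 0.00433, adjusted 0.00577). In edgeR the fold between rounds was 6.33 at 24 h (adjusted p = 1.87e-06) and 7.09 at 48 h (adjusted p = 7.43e-08). The controls were also higher in round E1 but stayed under 1 CPM in both rounds. At 24 h the 7 controls of round E1 ran from 0.169 to 0.703 CPM (median 0.592 CPM) and the 3 of round E2 from 0.188 to 0.712 CPM (median 0.220 CPM). At 48 h the 7 controls of round E1 ran from 0.255 to 0.497 CPM and the 2 of round E2 held 0.0785 and 0.211 CPM, so that the rounds did not overlap there either. Hb at 400 μM had medians of 2.91 and 2.74 CPM in rounds E1 and E2 at 24 h and of 2.89 and 2.52 CPM at 48 h.

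Over both rounds Hp was 1.73 (SE 0.46) above control on the log2 scale at 24 h, with 6 of 12 libraries above the highest control, and 2.98 (SE 0.49) at 48 h, with 9 of 11, where 0.0607% and 10.8% of genes were called. Within round E2 the difference was -0.06 (SE 0.60) at 24 h and 2.00 (SE 0.74) at 48 h, the latter against 2 controls of 0.0785 and 0.211 CPM. Within round E1 it was 2.49 (SE 0.39) at 24 h and 3.71 (SE 0.40) at 48 h. Within round E2 at 24 h the Hp libraries thus lay at the level of the controls, and within round E1 they lay above it.

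Other genes moved between the Hp rounds along with Il19. Nqo1, an NRF2-driven quinone reductase, ran from 22.4 to 34.1 CPM in round E1 and from 9.55 to 14.2 CPM in round E2 at 24 h, and from 26.3 to 53.1 CPM and from 8.05 to 12.9 CPM at 48 h. Gclm, a subunit of the enzyme that starts glutathione synthesis, ran from 175 to 212 CPM and from 95.5 to 133 CPM at 24 h. Hmox1 did not follow them, with medians of 2092 CPM in round E1 and 3349 CPM in round E2 at 24 h. Of the 15 NRF2 and heme-iron genes listed, 10 were called higher in round E1 at each time. Of all genes 34.2% were called at 24 h and 16% at 48 h, in either direction.

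The summed level of the 13 microglia markers went the other way, from 577 to 1892 CPM in round E1 and from 2440 to 3968 CPM in round E2 at 24 h, and from 1174 to 3845 CPM and from 4538 to 6448 CPM at 48 h. Of these markers 12 were called lower in round E1 at 24 h and 7 at 48 h. Between these rounds 34.2% and 16% of all genes were called in either direction. The sum of 8 border macrophage markers ran from 123 to 299 CPM in round E1 and from 414 to 628 CPM in round E2 at 24 h. The part of these differences in the Il19 split was not tested.

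**Figure D3:**
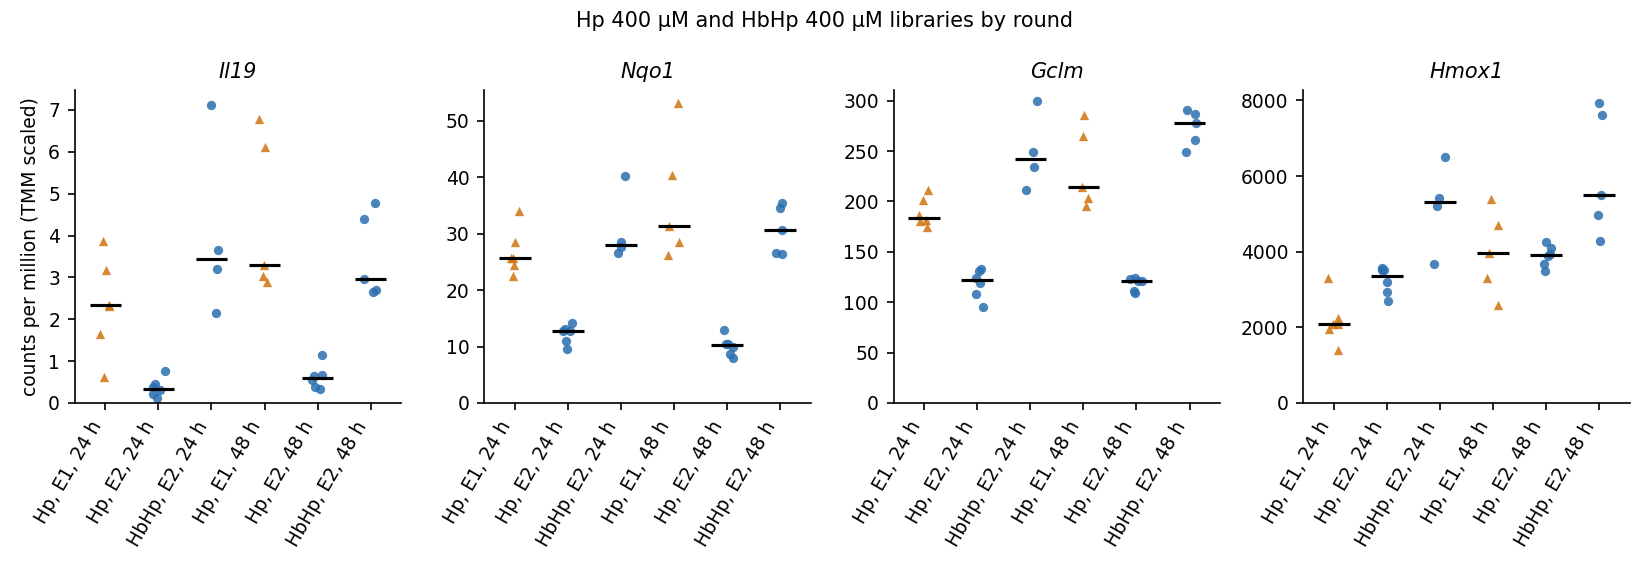
Il19, Nqo1, Gclm and Hmox1, 1 panel each, in CPM on the vertical axes, in the Hp libraries of rounds E1 and E2 and the HbHp libraries (400 μM, round E2) at 24 h and 48 h; points are libraries and bars are medians. Il19 and Nqo1 are higher in Hp of round E1 than in Hp of round E2, whereas Hmox1 at 24 h has its lower median (2092 CPM) in round E1.

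At 400 μM the hemoglobin groups held about 3 CPM of Il19. HbHp gave 2.16, 3.20, 3.65 and 7.11 CPM in its 4 libraries of 24 h, and 2.65, 2.70, 2.97, 4.40 and 4.78 CPM in its 5 libraries of 48 h. Hb gave 1.53, 2.91 and 4.55 CPM (lowest, median, highest of 10) at 24 h and 2.10, 2.87 and 4.15 CPM at 48 h. All of these libraries lay above every vehicle control of batches 2 and 3.

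Within round E2, HbHp at 400 μM exceeded Hp in every library. The log2 difference of means was 3.31 at 24 h for 4 against 6 libraries (exact two-sided permutation test, p = 0.00952, the smallest that 210 arrangements allow, adjusted over 4 tests 0.00952). It was 2.46 at 48 h for 5 against 6 libraries (exact two-sided permutation test, p = 0.00433, the smallest that 462 arrangements allow, adjusted 0.00577). In edgeR on round E2 alone Il19 was 10.9-fold higher with HbHp than with Hp at 24 h (log2 3.45, SE 0.43, adjusted p = 6.02e-07), with 0.992% of genes called. At 48 h it was 5.56-fold higher (log2 2.48, SE 0.40, adjusted p = 5.31e-05), with 3.37% of genes called.

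Hb at 400 μM was also above Hp within round E2. The difference was 7.41-fold at 24 h (log2 2.89, SE 0.49, adjusted p = 0.000973 in edgeR, 0.383% of genes called) for 4 against 6 libraries. It was 4.44-fold at 48 h (log2 2.15, SE 0.48, adjusted p = 0.0218 in edgeR, 0.511% of genes called) for 3 against 6 libraries. All Hp libraries were of batch 3, whereas most of these Hb libraries were of batch 2.

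Over both rounds these differences were smaller and missed the threshold in edgeR. HbHp against Hp gave a log2 difference of 1.58 (SE 0.45, adjusted p = 0.0606) at 24 h and 0.56 (SE 0.44, adjusted p = 0.713) at 48 h, where 1.02% and 0.583% of genes were called. The first of these passed without replicate 4 of HbHp at 24 h (log2 1.79, adjusted p = 0.0249 in edgeR). Hb against Hp gave 1.01 (SE 0.42, adjusted p = 0.445 in edgeR) at 24 h and 0.20 (SE 0.43, adjusted p = 0.831) at 48 h, where 0.0546% and 0.212% of genes were called. In round E1, where Hp itself was high, Hb against Hp gave 0.24 (SE 0.37, adjusted p = 0.9999 in edgeR) at 24 h and -0.70 (SE 0.38, adjusted p = 0.365) at 48 h. The 4 comparisons with Hp share the Hp libraries of their time.

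The bound and the free form of hemoglobin were not separated at 400 μM. HbHp exceeded Hb by 0.58 on the log2 scale at 24 h (SE 0.53, 95% interval -0.46 to 1.61, adjusted p = 0.538 in edgeR) and by 0.37 at 48 h (SE 0.50, 95% interval -0.62 to 1.35, adjusted p = 0.701 in edgeR). Among all genes 3.95% and 8.23% were called in these comparisons. The intervals leave room for a difference of up to 1.61 on the log2 scale and do not show that both forms act alike. Within round E2 alone the values were 0.56 (SE 0.50) and 0.33 (SE 0.49). All HbHp libraries were of batch 3, and 8 of the 10 Hb libraries at each time were of batch 2.

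**Figure D4:**
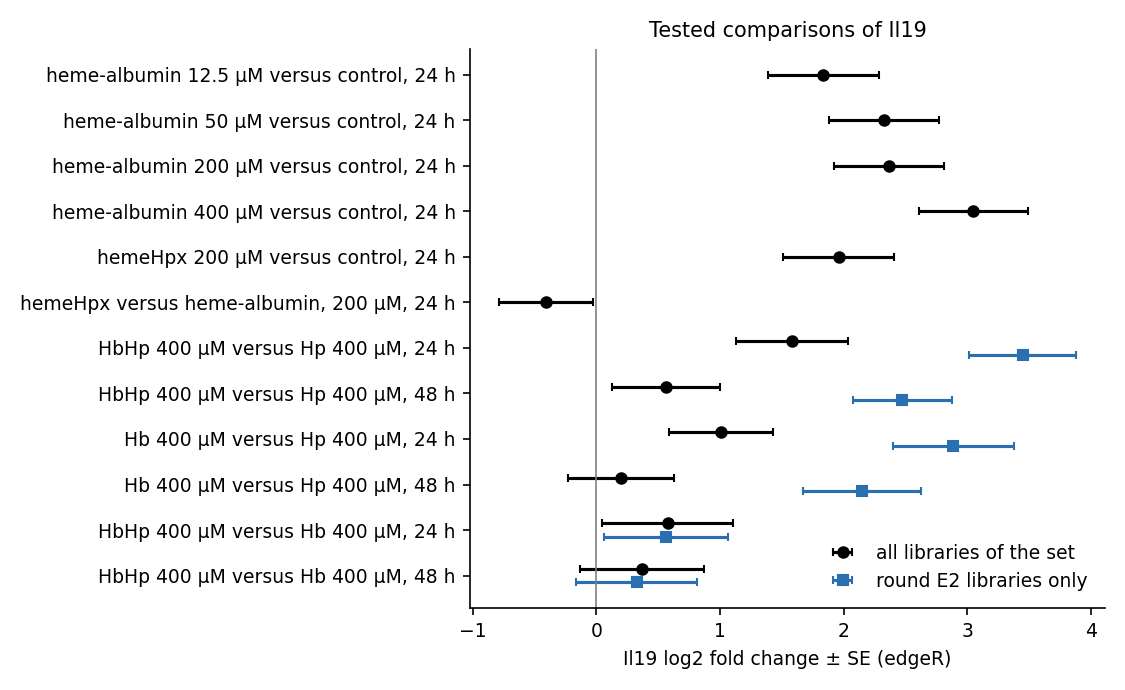
Fitted log2 fold changes of Il19 (edgeR) on the horizontal axis for the 12 tested comparisons, 1 per row, with bars of 1 standard error; circles use all libraries of the set and squares those of round E2. The 4 comparisons with Hp lie higher within round E2 (2.15 to 3.45) than over both rounds (0.20 to 1.58).

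Ordered by median, the 12 groups of batches 2 and 3 ran from control at 48 h (0.332 CPM) and 24 h (0.492 CPM) through Hp at 24 h (0.692 CPM) and 48 h (1.16 CPM) to HbHp at 200 μM (1.74 CPM at 24 h, 2.12 CPM at 48 h). Above them came Hb at 200 μM (2.14 and 2.47 CPM at 24 h and 48 h), Hb at 400 μM (2.87 CPM at 48 h, 2.91 CPM at 24 h) and HbHp at 400 μM (2.97 CPM at 48 h, 3.43 CPM at 24 h). Each group overlapped its neighbour in this order. The gap of medians was at most 0.585 CPM between neighbours.

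Of the relatives of Il19 only Il10 could be tested. Il20, Il22, Il24, Ifnl2 and Ifnl3 did not pass the filter on low counts in either set. Il10, which encodes the founding anti-inflammatory member of the family, passed it in batches 2 and 3. Per kilobase of annotated exon, group medians of Il10 ran from 0.063 to 0.320 CPM in batches 2 and 3, where those of Il19 ran from 0.289 to 2.98 CPM.

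Il10 was called higher with HbHp than with Hp at 400 μM and 48 h (log2 2.75, SE 0.51, adjusted p = 0.000751 in edgeR) and higher than with Hb (log2 2.26, SE 0.60, adjusted p = 0.0106 in edgeR). The 5 HbHp libraries held 0.225, 0.237, 0.419, 0.513 and 4.74 CPM of Il10, so 1 library, replicate 2 with 130 reads, was far above the others. Within round E2 the log2 differences were 2.77 against Hp (adjusted p = 0.0148 in edgeR) and 2.44 against Hb (adjusted p = 0.168 in edgeR). Without that library the log2 differences of Il10 over both rounds were 0.94 (adjusted p = 0.536 in edgeR) and 0.45 (adjusted p = 0.695 in edgeR). In that library Il19 was 4.78 CPM, the highest of its group but close to the next at 4.40 CPM.

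The other neighbours on chromosome 1 showed no like change. Pigr, the receptor that carries immunoglobulin across epithelia, and Fcmr, an immunoglobulin M receptor, did not pass the filter. Mapkapk2, a kinase downstream of p38, and Eif2d, a translation initiation factor, were called in none of the 18 comparisons over both rounds. Dyrk3, a kinase of stress granule dissolution, was called only between hemeHpx and heme-albumin (log2 -0.50 in edgeR).

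Of the receptor subunits, Il20rb was detected in every library with 14 to 112 reads, whereas Il20ra, its partner in the receptor for interleukin 19, held 0 to 9 reads and was not tested. Il20rb was called higher with heme-albumin at 400 μM (1.72 ± 0.43 CPM in controls, 2.19 ± 0.41 CPM with heme, SD, n = 10 each; log2 0.34, SE 0.13, adjusted p = 0.0487 in edgeR). It was called in no other comparison over both rounds. Il10rb, the shared second subunit for interleukins 10 and 22, was lower with heme-albumin at 200 μM (log2 -0.40) and 400 μM (log2 -0.38, adjusted p = 0.0221 in edgeR). Il22ra1 and Il22ra2 held at most 9 and 6 reads, and Il10ra and Ifnlr1 were called in none of the 18 comparisons over both rounds. Between the Hp rounds Il10ra was lower in round E1 at 24 h (log2 -1.69, adjusted p = 0.000924 in edgeR) and at 48 h (log2 -1.25, adjusted p = 0.0236 in edgeR), and Il10rb at 24 h (log2 -0.85, adjusted p = 0.00245 in edgeR).

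The 13 genes of JAK-STAT3 signalling were called in few comparisons and in both directions. With heme-albumin at 400 μM 5 of the 13 were called, against 29% of all genes. Of these 2 were higher, Socs1 (log2 0.47), an inhibitor of Janus kinases, and Pim1 (log2 0.60), a kinase gene induced by STAT factors. In the same comparison Jak2 (log2 -0.21), a kinase of cytokine receptors, and Stat5a (log2 -0.22), a transcription factor that such kinases activate, were among those called lower. The median log2 difference of the 13 was -0.008, against -0.013 for all genes.

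Stat3 itself (log2 0.01, SE 0.04) and its target Socs3 (log2 -0.20, SE 0.14) were not called with heme-albumin at 400 μM. With heme-albumin at 12.5, 50 and 200 μM and with hemeHpx 0 of the 13 were called against control. The shares of all genes called there were 0.0450%, 0.463%, 13.6% and 8.20%. HbHp against Hp at 400 μM and 24 h called Socs1 (log2 0.59, adjusted p = 0.0281 in edgeR) and Pim1 (log2 0.65, adjusted p = 0.0211 in edgeR), and within round E2 Socs1 alone (adjusted p = 0.0369 in edgeR). At 48 h 0 of the 13 were called in either fit. Of all genes 1.02% and 0.583% were called over both rounds at 24 h and 48 h. Within round E2 these shares were 0.992% and 3.37%. HbHp at 200 μM against control at 48 h called Jak1 (log2 0.23) and Pim1 (log2 0.41) higher and Stat3 (log2 -0.22), Stat5a (log2 -0.25), Socs3 (log2 -0.45) and Bcl3 (log2 -0.36) lower, with adjusted p of 0.00527 to 0.0388 in edgeR. In that comparison 24.7% of all genes were called. Within round E2, against only 2 controls, these genes were not called (adjusted p of 0.104 to 0.925 in edgeR). Their log2 differences there were 0.08 (Jak1), 0.04 (Pim1), -0.04 (Stat3), -0.14 (Stat5a), -0.34 (Socs3) and -0.21 (Bcl3). With so few controls this does not show that they stayed unchanged.

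The NRF2 and heme-iron genes, which detoxify oxidants and handle heme and iron, were called in 1 direction only against control. Of the 15 listed, 3, 11, 15 and 15 were called higher with heme-albumin at 12.5, 50, 200 and 400 μM, where 0.0450%, 0.463%, 13.6% and 29% of all genes were called in either direction. With hemeHpx 7 were higher, against 8.20% of all genes. Their median log2 difference rose over these doses from 0.33 through 0.63 and 0.85 to 1.10. With HbHp against Hp at 400 μM 4 of 15 were higher at each time over both rounds, namely Gclm, Slc48a1, Fth1 and Slc40a1, where 1.02% and 0.583% of all genes were called, and 14 of 15 within round E2, against 0.992% and 3.37%. With Hb against Hp at 400 μM 0 of 15 were called at either time over both rounds, and 8 at 24 h and 6 at 48 h were higher within round E2, against 0.383% and 0.511% of all genes. Against control, 4 and 5 of the 15 were higher with Hb at 200 μM at 24 h and 48 h (0.0425% and 0.115% of all genes called), and 11 and 14 with HbHp at 200 μM (3.46% and 24.7%). With Hp alone 2 were higher than in control at 24 h and 10 at 48 h (0.0607% and 10.8%). Within round E2 0 were called at either time, against only 3 controls at 24 h and 2 at 48 h. So few controls limit what can be called there, and these counts do not show that the genes stayed unchanged.

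Gclm rose from 119 ± 13.1 to 254 ± 19.3 CPM (SD, n = 10 each) with heme-albumin at 400 μM. Slc40a1, which encodes the iron exporter ferroportin, rose from 16.5 ± 6.47 to 85.4 ± 21 CPM. Slc48a1, a heme transporter of lysosomes, and Fth1, the ferritin heavy chain, rose by 0.93 and 0.69 on the log2 scale, all 4 with adjusted p of 3.15e-06 or less in edgeR. Between hemeHpx and heme-albumin at 200 μM, 12 of the 15 were lower with hemeHpx, including Gclm (log2 -0.77) and Slc40a1 (log2 -1.34), where 25.9% of all genes were called.

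Of 17 other cytokine genes listed, which are not all particular to myeloid cells, 13 could be tested. With heme-albumin at 400 μM 4 were called higher and 3 lower, where 29% of all genes were called. Il11, a cytokine of the interleukin 6 family, went from 2.45 ± 0.62 to 24.9 ± 14 CPM (SD, n = 10 each; log2 3.33, adjusted p = 6.75e-16 in edgeR), and Il6 from 1.70 ± 0.64 to 3.60 ± 2.21 CPM (log2 1.10, adjusted p = 0.00510). Tnf was not called there (log2 0.16, SE 0.36).

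Il11 was lower with hemeHpx than with heme-albumin at 200 μM (log2 -1.58, SE 0.24, adjusted p = 2.76e-06 in edgeR). HbHp against Hp at 400 μM called Il11 at 24 h (log2 1.92, adjusted p = 0.00120 in edgeR) and Tnf at 48 h (log2 1.18, adjusted p = 0.0205 in edgeR). Within round E2 these were 2.26 for Il11 at 24 h (adjusted p = 0.00295 in edgeR) and 0.90 for Tnf at 48 h (adjusted p = 0.0252 in edgeR), and Il11 was also called at 48 h (log2 2.04, adjusted p = 0.00302 in edgeR). Of 7 genes of alternatively activated macrophages, 5 could be tested, of which 2 were lower with heme-albumin at 200 μM and at 400 μM (13.6% and 29% of all genes called) and 3 were higher with hemeHpx than with heme-albumin (25.9% of all genes called). Between HbHp and Hp at 400 μM 0 of the 5 were called over both rounds at either time, and within round E2 0 at 24 h and 1 at 48 h, which was lower.

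Over the means of the 12 conditions of batches 2 and 3, among 2393 genes whose means spanned at least 1 on the log2 scale, the 8 with the largest Pearson correlation with Il19 were Adh7 (0.94), Cyp1a1 (0.91), Osgin1 (0.90), Gclm (0.88), Slc7a11 (0.86), Gm43181 (0.86), Nqo1 (0.85) and Slc40a1 (0.84). Adh7 is an alcohol dehydrogenase, Cyp1a1 the main target of the aryl hydrocarbon receptor, Osgin1 an oxidative stress gene and Slc7a11 the cystine importer. These means share controls, batches and libraries, and the choice of the largest of many fixes that they are high.

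Over the 6 conditions of batch 1, which the ranking did not use, the 7 of these genes that were kept there correlated with Il19 at 0.81 to 0.93. These values rest on 6 means, most of them of rising heme doses, which moved many genes. The share of all genes that reach such values is not given, so they show no particular likeness. From control to HbHp at 400 μM, both at 24 h, the condition mean of Il19 rose by 3.09 on the log2 scale, that of Adh7 by 2.14, that of Cyp1a1 by 2.07 and that of Slc40a1 by 1.98. In that pair of conditions the change of Il19 was the largest of these 9 genes. Il19 was chosen by its fold changes over the same controls, so its place among them is no separate result. At HbHp 200 μM and 48 h Cyp1a1 lay higher, at 2.54 above the 24 h control against 2.36 for Il19.

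**Figure D5:**
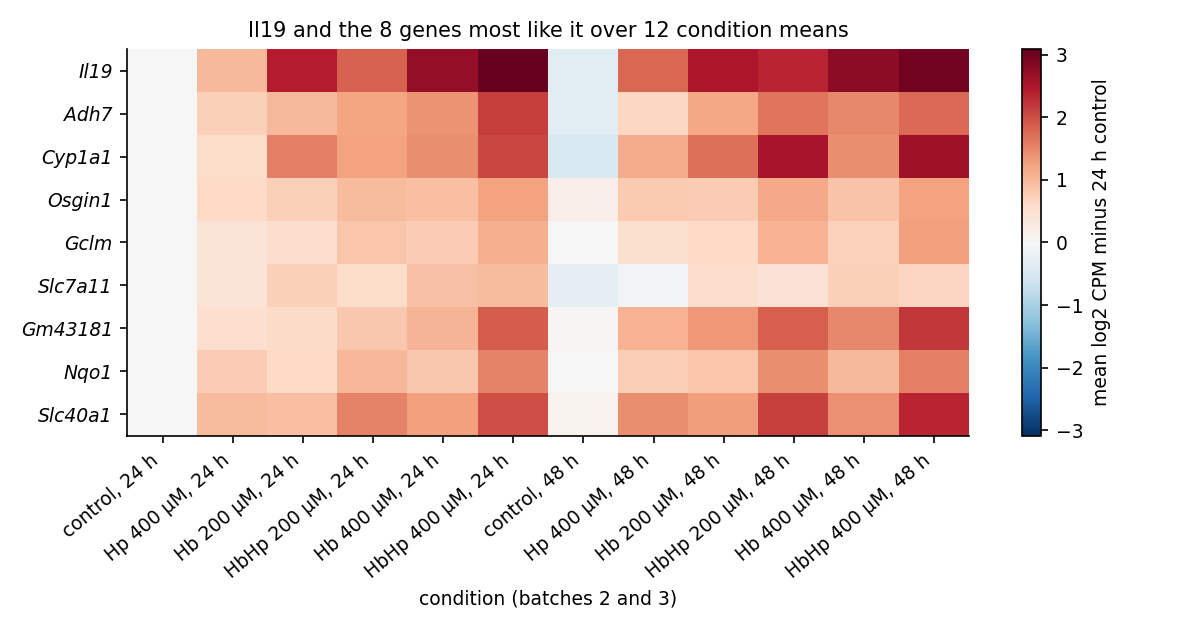
Heat map of Il19 and the 8 genes most like it (rows) over the 12 conditions of batches 2 and 3 (columns); colour gives the mean log2 CPM minus that of the 24 h control. Il19 is 3.09 above the 24 h control at HbHp 400 μM and 24 h, the deepest colour of that column.

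Of these 8 genes, 6 were in the promoter table, and 1 of the 6 held the antioxidant response element core in the 250 bases before its start, a share to set beside 10.2% of all promoters. It was Gclm, and the core is shown in capitals on the strand of the gene with 10 bases on each side (chr3:122245413-122245441, plus strand, GRCm38.p6).
Gclm: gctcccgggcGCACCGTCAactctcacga

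With the condition means removed, so that only the spread among libraries of a condition was left, Il19 went most with Nqo1 (0.72), Ptgs2 (0.70), Egr2 (0.67), Tiparp (0.66), Slc7a11 (0.65), Gbe1 (0.64), Gsr (0.63) and Fosl1 (0.63). Ptgs2 encodes the inducible cyclooxygenase, Egr2 and Fosl1 are early response transcription factors, and Gsr is glutathione reductase. These values contain the split of the Hp libraries by round. With round means removed as well, the correlation of Il19 with Nqo1 fell to 0.31 and that with Slc7a11 to 0.18.

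The genes most like Il19 then were Timp1 (0.58), Gimap4 (0.58), Egfl7 (0.54), Itm2a (0.54), Lum (0.54), Cxcl12 (0.53), Kcnq1 (0.53) and Dusp2 (0.53). Timp1 is an inhibitor of matrix proteases, Egfl7 is secreted by endothelial cells, Lum is a matrix proteoglycan of fibroblasts and Cxcl12 is a stromal chemokine. These are the largest of many correlations, and that choice fixes that they are high. In the 60 libraries of batch 1 with condition means removed, Il19 correlated with the 8 genes at 0.53 (Kcnq1) to 0.75 (Lum). Many summed marker lists gave values of this size there, as listed below. Over the 6 condition means of batch 1 the correlation was 0.65 for Timp1, -0.21 for Lum and -0.66 for Cxcl12.

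Summed marker levels were compared with Il19 in the same way. In batch 1 the correlation of Il19 with the summed markers was 0.71 for fibroblasts and meninges, 0.67 for microglia, 0.66 for border macrophages, 0.63 for endothelium, 0.62 for monocytes and neutrophils, 0.61 for epithelium and choroid plexus, 0.59 for oligodendrocytes, 0.30 for neurons and -0.24 for astrocytes. For the sum of the NRF2 and heme-iron genes it was 0.73. Such a sum of CPM follows its most abundant members and does not weigh the genes equally, so this value is no likeness to each of them. Single genes of the list gave -0.46 (Gsr), -0.37 (Slc7a11), -0.22 (Gclm), 0.22 (Osgin1), 0.26 (Nqo1) and 0.57 (Slc40a1). In batches 2 and 3, within condition and round, the largest values were 0.50 for endothelium and 0.48 for fibroblasts and meninges, with 0.17 for microglia, 0.17 for the NRF2 and heme-iron genes, -0.07 for oligodendrocytes and -0.29 for neurons. Libraries may share animals, and these values are descriptions.

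Marker genes were also counted between the conditions of batch 1. Of the 7 fibroblast and meningeal markers, 0 were called in any of the 6 comparisons of batch 1. Of the 13 microglia markers, 9 were lower with heme-albumin at 200 μM and 5 at 400 μM (13.6% and 29% of all genes called), 0 were called with hemeHpx against control, and 11 were higher with hemeHpx than with heme-albumin (25.9% of all genes called). Of the 7 endothelial markers 1 and 2 were lower with heme-albumin at 200 and 400 μM, and of the 8 border macrophage markers 4 and 3. The part of cell composition in the Il19 levels was not tested.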

How the data were processed

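Polyadenylated RNA of cultured brain slices was sequenced in bulk (TruSeq mRNA) for 188 libraries, and the deposited values were raw counts per Ensembl gene, made by the authors with featureCounts on GRCm39 according to the submitters' processing notes. The aligner and the strand setting are not given in the sources used here. Symbols were matched for 25600 of 25655 gene IDs of batch 1 and 25424 of 25528 of batches 2 and 3. Positions and promoter letters came from GRCm38 (GENCODE and RefSeq tables), and no coordinate was carried between builds.

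Batch 1 (60 libraries) and batches 2 and 3 (12 groups, sequencing batch as a further term) were fitted apart with edgeR 4.0.16 in R 4.3.3, using TMM scaling, filterByExpr (smallest count 10, total 15), the quasi-likelihood F test and Benjamini and Hochberg's adjustment at 0.05, over 15554 and 16473 genes. The study's methods used DESeq2 with shrunken fold changes, and DESeq2 1.42.0 was run here as an alternative. Levels are TMM-scaled CPM, and log2 CPM used a prior count of 2. Exact permutation tests (scipy 1.17.1) compared means of log2 CPM within round E2 and, chosen after seeing the data, between rounds. Other alternatives were RLE scaling, no filter, no batch term, round as a term, single rounds, the library code as a block, and libraries left out. The fit was tested on simulated data. Of the pairs of libraries in a group, 0 held identical counts.

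Il19, the gene lists and the tests were chosen with earlier results of these data known. The genes named were Il19, the detected members of its family, receptors and JAK-STAT3 genes, its 4 nearest protein-coding neighbours on either side, and the 8 genes most like it by Pearson correlation over condition means that span at least 1 on the log2 scale and within conditions. Of the other lists, counts and examples are given. The values of 200 μM and of Hp against control carry no test for Il19. The 21 libraries of open condition entered no fit. For 1 listed gene the values are not reported here.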

Additional observations from a re-analysis of the deposited data

Results flagged for a closer look

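In 3 of the 16 groups of 4 to 10 libraries, 1 library stood far from the others for Il19, by its gap to the next library divided by the range of the group on the log2 scale. Chance flags about 1 in 20 such groups. In each case the library was the lowest of its group. Replicate 2 of HbHp at 200 μM and 24 h held 0.482 CPM (ratio 0.67), replicate 14 of the batch 1 controls held 0 reads (ratio 0.571), and replicate 1 of heme-albumin at 400 μM held 0.366 CPM, or 8 reads (ratio 0.477).

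Without these libraries, in alternatives chosen after seeing the data, the log2 difference of HbHp at 200 μM from control at 24 h was 2.13, and that of heme-albumin at 12.5, 50 and 200 μM was 1.72, 2.21 and 2.25 without the control. Leaving out either the control or the low heme-albumin library put heme-albumin at 400 μM between 2.93 and 3.18.

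Hp alone differed between rounds E1 and E2, by 2.48 on the log2 scale at 24 h and by 2.74 at 48 h, the higher level being in round E1. Its tests stand above beside the values of each library.

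The 20 libraries of batch 3 whose labels leave the condition open held at least 3.55 CPM of Il19, above every vehicle control of batches 2 and 3.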

How the results depend on the processing

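Over the alternatives, 142 values of the comparisons of Il19 kept their direction and their side of the threshold or stayed within the spread of libraries, 9 passed the threshold where the reported value missed it, 1 missed it, 4 moved by more than the spread and 2 changed sign. Round mattered most. Within round E2 the log2 differences were 3.45 and 2.48 for HbHp against Hp at 24 h and 48 h, 2.89 and 2.15 for Hb against Hp, 3.79 for Hb and 3.97 for HbHp at 200 μM against control at 48 h, and -0.059 for Hp against control at 24 h. Within round E1 Hb against Hp at 48 h gave -0.70. With round as a further term, HbHp against Hp at 24 h gave 2.32 (adjusted p = 0.000442 in edgeR) and HbHp at 200 μM against control at 48 h gave 3.74. Libraries with the same code in their names were somewhat more alike than libraries of the same round with another code. The median correlation of their deviations was 0.192 against -0.0101 in batch 1, and 0.137 against 0.0619 in batches 2 and 3. Of the pairs with the same code 55.6% and 54% were over 0.1, against 38.8% and 43.7% of the other pairs. The ranges of both kinds of pairs overlapped, and the fits reported above did not use the code. With this code as a replicate block, heme-albumin at 12.5 μM gave 1.75 (adjusted p = 0.0447 in edgeR), HbHp against Hp at 24 h 2.48 (adjusted p = 0.00113 in edgeR), HbHp at 200 μM against control at 48 h 3.75, and Il10 with HbHp against Hb at 48 h 1.84 (adjusted p = 0.0919 in edgeR), which was 2.44 (adjusted p = 0.168 in edgeR) in round E2. DESeq2 gave 1.86 for heme-albumin at 12.5 μM. Without the batch 1 control replicate 14, hemeHpx gave 1.83 (adjusted p = 0.0507 in edgeR). Leaving out 1 HbHp library at a time, HbHp against Hp ranged from 1.16 to 1.79 at 24 h and 0.42 to 0.64 at 48 h, HbHp against Hb from 0.15 to 0.78 and 0.23 to 0.44, and Il10 from 0.94 to 3.01 (against Hp) and 0.45 to 2.53 (against Hb) at 48 h. Within round E2 such ranges were 2.999 to 3.56 and 2.34 to 2.55, with exact permutation p of at most 0.0238. On the log2(CPM + 1) scale those values were 1.81 and 1.46. The causes were not tested.

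Counts of called genes moved more than 1.5 times with the setting. In batch 1 they ran from 1 to 22 at 12.5 μM (7 as reported), 38 to 198 at 50 μM (72) and 277 to 3706 for hemeHpx against control (1276). At 24 h and 48 h they ran from 89 to 276 (168) and 70 to 238 (96) for HbHp against Hp, 4 to 88 (9) and 33 to 599 (35) for Hb against Hp, 185 to 845 (650) and 705 to 2739 (1355) for HbHp against Hb, 7 to 18 (7) and 19 to 71 (19) for Hb at 200 μM, 210 to 1211 (570) and 1959 to 5150 (4066) for HbHp at 200 μM, and 10 to 232 (10) and 1379 to 2717 (1779) for Hp against control. In controls Il19 rested on few reads, so that its low levels were measured least well.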

Other observations

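The 20 libraries of batch 3 with titles that name hemoglobin with haptoglobin and with the treatment tag HbHpx, 14 of them of round E1, held 3.55, 5.29 and 12.5 CPM of Il19 (lowest, median and highest, not TMM scaled), from 84 to 361 reads. The highest of the 19 vehicle controls of batches 2 and 3 held 0.726 CPM on the same scale, and 20 of the 20 libraries lay above it. The single library of batch 2 without a treatment tag held 0.241 CPM of Il19, from 12 reads. These libraries are not replicates of a group and were not compared.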
